A study of Mus musculus with 2 samples.

Results

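The cytochrome P450 genes are described here as they stood in the open chromatin of embryonic mouse liver. All 100 protein-coding genes of the GENCODE vM21 annotation whose symbol is Cyp followed by a digit were taken, of 21938 protein-coding genes in all. They fell into 17 families. The Cyp51, Cyp11, Cyp26 and Cyp27 families (9 genes), whose enzymes act on sterols, steroids and retinoids, were set beside the Cyp1 to Cyp4 families (81 genes), which hold the enzymes of drug and fatty acid metabolism. The other families held the remaining 10 genes. The material was liver of embryos of the mouse strain B6NCrl at embryonic day 11.5, pooled from males and females. Per the labels, 2 DNase-seq libraries, technical replicates 7 and 1, came from biological replicate 1. DNase-seq cuts accessible DNA in nuclei with DNase I and sequences the cut ends, so a peak marks open chromatin. With 1 biological sample and no second condition no test across samples was possible, and every comparison below is a description of these libraries.

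P450 enzymes are haem proteins that put an oxygen atom into their substrate, and they need electrons from a partner protein. Those in the endoplasmic reticulum take them from P450 oxidoreductase (Por), with cytochrome b5 as a helper, and those in mitochondria take them from ferredoxin (Fdx1) and its reductase (Fdxr). The adult liver is the main site of the Cyp1, Cyp2 and Cyp3 enzymes that oxidise drugs and of the Cyp7 and Cyp8 enzymes of bile acid synthesis, and many of these genes sit in tandem arrays made by gene duplication. Cyp51 serves cholesterol synthesis in all tissues, Cyp11 enzymes make steroid hormones in adrenal and gonad, Cyp26 enzymes destroy retinoic acid in the embryo, and Cyp27 enzymes hydroxylate sterols and vitamin D.

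The list of technical replicate 7 held 86036 peaks and that of technical replicate 1 held 42422. Each peak carries the highest density of cuts within it, in units whose scaling the file headers do not give. The smallest step between densities was 2.52 times finer in technical replicate 7. The number of reads is not given, so the depth is unknown, and densities are ranked within a library. Peaks that overlapped between the libraries were joined into 34023 shared regions. A gene is called open here where a shared region lay within 1 kb of any of its annotated starts, and closed where neither library listed a peak there. At an unknown depth, closed means only that no peak was detected. As a check of the tissue, 2 of 7 hepatoblast markers were open (Foxa3 and Cebpa), Afp, Ttr, Hnf4a and Dlk1 had a start peak in technical replicate 7 alone, and Alb had none in either library. All 5 erythroid markers, 2 of 3 endothelial, 0 of 2 macrophage and 3 of 3 mesenchymal markers were open. In a bulk sample, fewer cells of a type and less open chromatin per cell cannot be told apart, and what the mixture of cells contributes to the Cyp values was not tested.

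The DNA just upstream of a few starts shows the kinds of promoter the results turn on. The 250 bases before the RefSeq start, which need not be the GENCODE start used for the distances in the text, are given 5′ to 3′ on the strand of the gene (RefSeq table, assembly GRCm38.p6). In the first set, from genes open in both libraries, capitals mark the footprints listed for technical replicate 7, which are short stretches protected from DNase I inside an open region.
Cyp51, chr5:4104698-4104947, minus strand: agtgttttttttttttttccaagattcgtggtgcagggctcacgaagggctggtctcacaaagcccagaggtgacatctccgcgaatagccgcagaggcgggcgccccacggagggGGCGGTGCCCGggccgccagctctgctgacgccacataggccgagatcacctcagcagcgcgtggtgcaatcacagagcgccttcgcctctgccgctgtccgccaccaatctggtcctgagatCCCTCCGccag
Cyp46a1, chr12:108334066-108334315, plus strand: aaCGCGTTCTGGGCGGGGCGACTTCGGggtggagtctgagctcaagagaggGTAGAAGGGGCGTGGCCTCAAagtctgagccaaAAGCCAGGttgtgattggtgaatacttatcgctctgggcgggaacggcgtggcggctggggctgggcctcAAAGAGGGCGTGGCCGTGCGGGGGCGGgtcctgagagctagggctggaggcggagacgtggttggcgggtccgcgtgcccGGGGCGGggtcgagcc
Cyp20a1, chr1:60343050-60343299, plus strand: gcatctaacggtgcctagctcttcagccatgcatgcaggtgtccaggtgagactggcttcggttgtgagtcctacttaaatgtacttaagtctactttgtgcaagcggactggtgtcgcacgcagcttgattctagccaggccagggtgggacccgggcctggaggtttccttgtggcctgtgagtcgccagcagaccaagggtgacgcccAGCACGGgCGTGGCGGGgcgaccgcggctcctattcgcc
Cyp4f13, chr17:32947362-32947611, minus strand: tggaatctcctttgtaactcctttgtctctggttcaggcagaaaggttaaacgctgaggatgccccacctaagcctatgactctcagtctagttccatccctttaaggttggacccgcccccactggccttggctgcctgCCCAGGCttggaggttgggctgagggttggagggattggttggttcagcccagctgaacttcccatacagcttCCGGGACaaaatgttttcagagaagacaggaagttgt
In the second set capitals mark the letters TATAAA. The element stood 30 bases before the start of Cyp1a1, which was open, and 31 bases before the starts of Cyp2e1 and Cyp8b1, which had no peak in either library.
Cyp1a1, chr9:57697363-57697612, plus strand: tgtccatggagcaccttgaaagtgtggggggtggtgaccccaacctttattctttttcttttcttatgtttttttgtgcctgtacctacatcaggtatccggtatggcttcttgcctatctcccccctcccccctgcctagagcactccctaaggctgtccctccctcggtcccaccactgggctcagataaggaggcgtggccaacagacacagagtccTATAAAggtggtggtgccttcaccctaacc
Cyp2e1, chr7:140763569-140763818, plus strand: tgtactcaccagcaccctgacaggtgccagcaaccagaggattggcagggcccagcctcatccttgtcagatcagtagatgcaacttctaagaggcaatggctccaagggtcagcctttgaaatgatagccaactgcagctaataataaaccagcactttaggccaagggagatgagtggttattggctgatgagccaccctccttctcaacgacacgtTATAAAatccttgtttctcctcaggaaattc
Cyp8b1, chr9:121916306-121916555, minus strand: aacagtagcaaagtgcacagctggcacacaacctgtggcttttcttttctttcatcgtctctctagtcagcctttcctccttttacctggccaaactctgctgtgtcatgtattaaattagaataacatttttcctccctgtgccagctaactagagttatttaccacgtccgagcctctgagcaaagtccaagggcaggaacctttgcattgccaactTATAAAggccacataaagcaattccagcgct
The last sequence is the centre of a shared region 1.06 kb upstream of that Cyp1a1 start. Capitals mark GCGTG on either strand, the core that the aryl hydrocarbon receptor binds.
Cyp1a1 upstream region, chr9:57696401-57696700, plus strand: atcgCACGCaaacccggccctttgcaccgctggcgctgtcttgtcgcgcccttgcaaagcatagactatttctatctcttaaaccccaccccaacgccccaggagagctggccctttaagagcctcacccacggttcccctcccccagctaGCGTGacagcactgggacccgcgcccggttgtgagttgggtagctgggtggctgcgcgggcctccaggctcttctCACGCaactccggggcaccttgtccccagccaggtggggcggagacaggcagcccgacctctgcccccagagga

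Most P450 genes were closed in this liver. A shared start peak was found at 19 of the 100 Cyp genes (19.0%), against 59.0% of all protein-coding genes. A further 7 members had a start peak in technical replicate 7 alone, and 74 had none in either list. The median distance from a start to the nearest shared region was 68.6 kb over the members, against 0.155 kb over all protein-coding genes. Technical replicate 7 by itself listed a start peak for 26 members, against 65.0% of all genes. Technical replicate 1 listed 19, the same 19 genes, against 59.6% of all genes. With the longer of the deposited peak lists 20 members were open, the addition being Cyp26a1, against 61.5% of all genes. Hotspots, which are broader zones of raised cutting, covered a start in both libraries at 23 members, against 64.5% of all genes. The 4 members with such a hotspot but no shared peak were Cyp2j6, Cyp2j9, Cyp2w1 and Cyp26a1. Footprints lay within 1 kb of a start of 21 members in technical replicate 7, against 60.4% of all genes, and of 25 members in technical replicate 1, against 65.6%. Of the 19 open genes, 17 had a footprint in technical replicate 7 and all 19 had one in technical replicate 1. These counts were near the general state of open genes, of which 12210 of 12944 had a footprint in technical replicate 7 and 12931 had one in technical replicate 1.

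The open Cyp starts ranked lower than the open starts of genes at large. The mean rank percentile of the strongest start region over both libraries had a median of 55.2 among the 19 open members, against 87.6 among the 12944 open protein-coding genes. It ranged among members from 15.3 for Cyp4x1 to 98.8 for Cyp46a1. The strongest region lay a median of 65 bp from its nearest start, within 100 bp at 11 of the 19 genes and upstream of the start at 14.

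**Figure D1:**
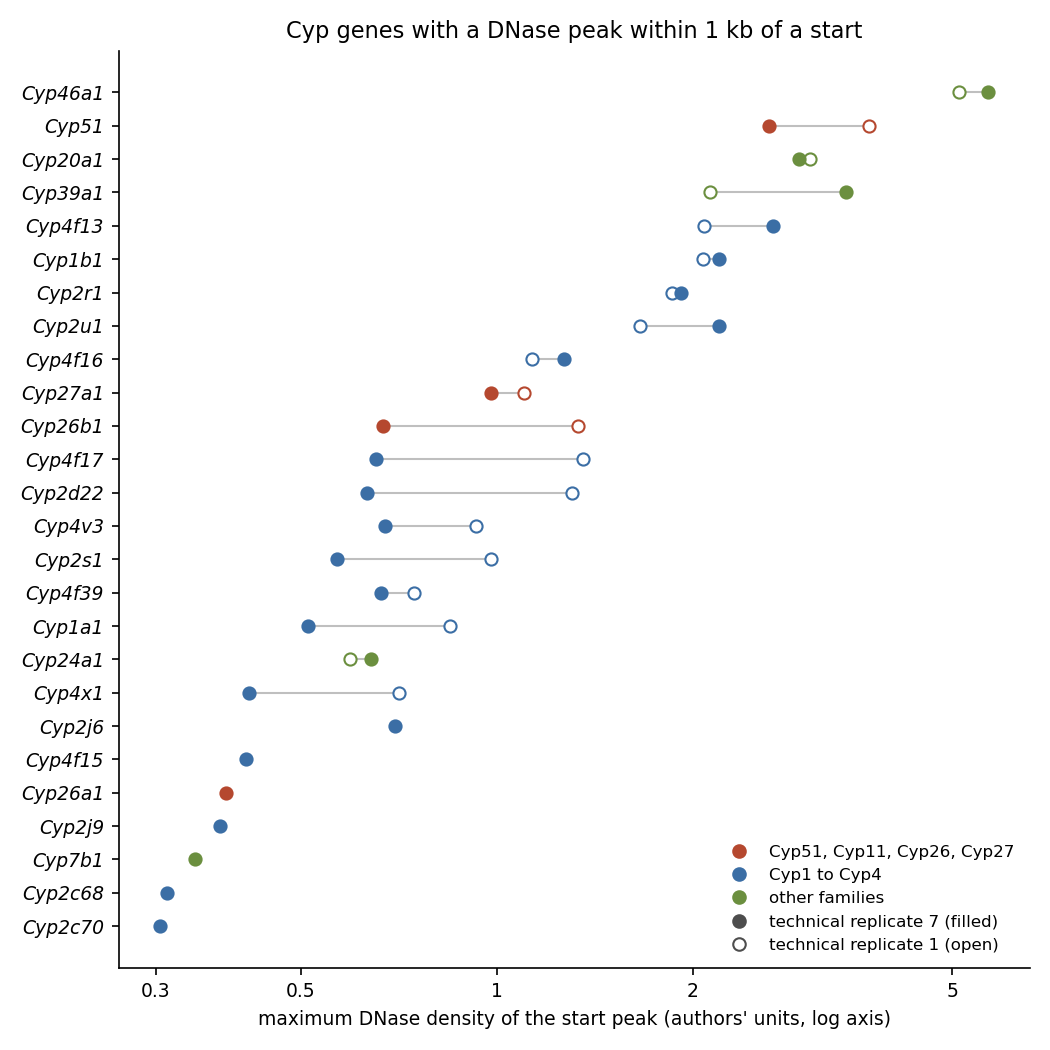
Highest DNase density at the strongest start region of each of the 19 open Cyp genes, and at the start peak of the 7 genes with a peak in technical replicate 7 alone, on a log axis. Filled circles are technical replicate 7 and open circles technical replicate 1, joined by a line for each gene, and colours give the family set; Cyp46a1 stands at the top with 5.68 and 5.11, and the 7 single-library genes lie between 0.30 and 0.70.

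In the sterol, steroid and retinoid families 3 of 9 genes were open (33.3%), against 12 of 81 in Cyp1 to Cyp4 (14.8%). The difference rests on few genes and was not tested, since members of a tandem array share their surroundings. Cyp51, the demethylase of lanosterol on the way to cholesterol, was the strongest of the set. Its region on chromosome 5 (4104374 to 4104896) reached a density of 2.62 in technical replicate 7 and 3.72 in technical replicate 1, at rank percentiles 90.5 and 92.6. The region was centred 12 bp upstream of the start and held 6 footprints in technical replicate 7 and 9 in technical replicate 1 within 1 kb. No distal shared peak lay within 50 kb of Cyp51.

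Cyp27a1, the mitochondrial sterol hydroxylase of bile acid synthesis, was open on chromosome 1 (74713119 to 74713638). Its densities were 0.98 in technical replicate 7 and 1.10 in technical replicate 1, at rank percentiles 69.8 and 40.6, and the region was centred 233 bp upstream of the start. Cyp27b1, which activates vitamin D in the kidney, had no start peak in either library. The nearest shared region was 6.31 kb away, at the start of Mettl1. Hotspots in technical replicate 7 alone, with a −log10 false discovery rate of up to 1.92, reached the start window of Cyp27b1.

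The Cyp26 genes, which clear retinoic acid, differed from each other. Cyp26b1 was open at an internal start 6228 bp inside the gene on chromosome 6 (84587555 to 84587846), with densities of 0.67 in technical replicate 7 and 1.33 in technical replicate 1. Its outermost 5′ end had no shared peak. Cyp26a1 was seen in part of the lists. Its start on chromosome 19 (37697648 to 37698092) had a peak in technical replicate 7 alone, with a density of 0.38 at rank percentile 15.7. Hotspots there reached a −log10 false discovery rate of 4.30 in technical replicate 7 and 2.83 in technical replicate 1. Cyp26c1, 12.2 kb away, had no start peak. The 16.0 kb that hold both genes carried 8 peaks of technical replicate 7 and no peak of the other library. All 3 Cyp11 genes lacked a start peak in both libraries: Cyp11a1, which cuts the side chain of cholesterol, and Cyp11b1 and Cyp11b2, which finish corticosterone and aldosterone. The nearest shared region was 16.1 kb from the start of Cyp11a1, 54.9 kb from that of Cyp11b1 and 40.2 kb from that of Cyp11b2. The start windows of Cyp11b1 and Cyp11b2 were only 78.1% and 76.7% unique in sequence (defined below).

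Among the 10 genes of other families 4 were open. Cyp46a1, the enzyme that hydroxylates cholesterol in the brain, had the strongest start of all members. Its region on chromosome 12 (108333962 to 108334394) had densities of 5.68 in technical replicate 7 and 5.11 in technical replicate 1, at rank percentiles 99.0 and 98.7. It held 5 footprints of technical replicate 7 in the 250 bases printed above, the longest 27 bases. Cyp20a1, a member without a settled substrate, had densities of 2.90 in technical replicate 7 and 3.02 in technical replicate 1, centred 19 bp upstream of its start. Cyp39a1, which acts on a hydroxylated brain cholesterol, had 3.43 and 2.12 in technical replicates 7 and 1. Its region was centred 206 bp upstream, between its own start and that of Slc25a27, 211 bp away. Cyp24a1, which inactivates vitamin D, had 0.64 and 0.60 in technical replicates 7 and 1, at rank percentiles 51.4 and 2.40, and the start of Pfdn4 lay 717 bp from its own. Open chromatin at Cyp39a1 and Cyp24a1 therefore cannot be assigned to the Cyp gene rather than to its neighbour. No other member had a start of another protein-coding gene within 1 kb, which applied to 12.3% of all protein-coding genes.

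Most of the other bile acid and steroid genes of these families, apart from Cyp39a1, had no start peak. Cyp7a1, the rate-limiting enzyme of bile acid synthesis, and Cyp8b1, which directs it to cholic acid, had no start peak, hotspot or footprint in either library. The nearest shared region lay 50.2 kb from Cyp7a1 and 25.5 kb from Cyp8b1. Cyp7b1, of the alternative bile acid pathway, had a peak in technical replicate 7 alone with a density of 0.34 at rank percentile 8.08. Cyp17a1 and Cyp19a1, the androgen- and oestrogen-forming enzymes, had none, and their nearest shared regions were 17.0 kb and 124 kb away. Cyp21a1, of adrenal steroid synthesis, had none either.

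In the Cyp1 family, whose genes answer to the aryl hydrocarbon receptor, 2 of 3 genes were open. Cyp1b1 had densities of 2.19 in technical replicate 7 and 2.07 in technical replicate 1, at rank percentiles 88.3 and 74.1. That region lay 689 bp upstream of the start on chromosome 17 (79715590 to 79716003), whereas at the start itself technical replicate 7 alone listed a weaker peak, at 0.44. Cyp1a1 was open at both of its annotated starts, which lie 9685 bp apart on chromosome 9. The start that RefSeq also gives had 0.50 in technical replicate 7 and 0.75 in technical replicate 1 (57697248 to 57697678). The outer start had 0.51 and 0.85 in technical replicates 7 and 1 (57688111 to 57688389). These are weak sites, at mean rank percentiles of 24.2 and 29.2. Between them lay the shared region whose centre is printed above (57696358 to 57697058), with 0.60 in technical replicate 7 and 0.75 in technical replicate 1. It held 3 copies of GCGTG in 300 bases, a number reached by 2.03% of the 14327 distal shared regions, of which 29.3% held at least 1 copy. Of the 51 distal regions near members, 16 (31.4%) held at least 1 copy, so the motif was about as common near Cyp genes as elsewhere. The region was chosen after its values were seen, and a region near Cyp2w1, described below, held 4 copies. Cyp1a2, whose start is 4225 bp from the outer start of Cyp1a1, had no start peak.

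The Cyp2 family was open at 4 of 49 genes. They were Cyp2r1, which hydroxylates vitamin D in the liver, Cyp2u1, which acts on fatty acids, Cyp2s1 and Cyp2d22. Cyp2r1 had densities of 1.91 in technical replicate 7 and 1.86 in technical replicate 1 on chromosome 7 (114562786 to 114563180). Cyp2u1 had 2.19 and 1.66 in technical replicates 7 and 1 on chromosome 3, centred on a start. Cyp2s1 had 0.57 and 0.98, and Cyp2d22 had 0.633 and 1.303, in technical replicates 7 and 1. The last was the open gene of the Cyp2d array, its region centred 362 bp inside the gene. Cyp2j6, which had no peak in technical replicate 1, reached 0.70 in technical replicate 7 at rank percentile 55.7, the strongest single-library start among members. The other single-library Cyp2 starts were Cyp2j9 at 0.38, Cyp2c68 at 0.31 and Cyp2c70 at 0.30. Cyp2e1, the ethanol-oxidising enzyme of adult liver, had no start peak, and its nearest shared region was 58.3 kb away.

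The Cyp3 family, the main drug-oxidising family of adult liver, was closed at all 9 genes in both libraries. None of the 9 had a start hotspot or a distal shared peak within 50 kb. Cyp3a11, the major adult form, Cyp3a13 and Cyp3a16, the fetal form, lay 341 kb, 134 kb and 189 kb from the nearest shared region. The start window of Cyp3a16 was only 59.8% unique, and that of Cyp3a11 was 97.2% unique.

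The Cyp4 family, whose enzymes mostly oxidise fatty acids and eicosanoids at their far end, was open at 6 of 20 genes, with 4 of them in the Cyp4f array. Cyp4f13 was the strongest, with 2.65 in technical replicate 7 and 2.08 in technical replicate 1, at rank percentiles 90.6 and 74.3 (chromosome 17, 32947331 to 32947612). Cyp4f16 had 1.27 and 1.13, Cyp4f17 had 0.65 and 1.35, and Cyp4f39 had 0.66 and 0.75, in technical replicates 7 and 1. Cyp4f15 had 0.41 in technical replicate 7 and no peak in technical replicate 1. Outside that array Cyp4v3 had 0.67 and 0.93, and Cyp4x1 had 0.42 and 0.71, in technical replicates 7 and 1. Cyp4x1 was the weakest open member by rank.

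Many closed members sat in tandem arrays. Cyp genes whose 5′ ends lie under 250 kb apart form 11 arrays with 75 genes, of which 8 were open (10.7%). Of the 25 Cyp genes outside arrays, 11 were open (44.0%). Nearly all array genes, 68 of 75, had little CpG at the 5′ end (under 0.3 of the expected number, as measured below), and 3 of these 68 were open, against 1 of 12 such genes outside arrays. Of the remaining genes, 5 of 7 in arrays and 10 of 13 outside were open. The Cyp2c array on chromosome 19 (39007019 to 40187333) spans 1180 kb and 14 genes. It held no shared peak, and 1 peak of technical replicate 7, at the start of Cyp2c68. The start peak of Cyp2c70, in the same library, lay at the outer edge of the array. The Cyp3a array on chromosome 5 (145345279 to 146113287) spans 768 kb with 8 genes and held no peak in either library. The Cyp2j array on chromosome 4 (637 kb) held no shared peak and 3 of technical replicate 7. For comparison, all chromosomes held 1.25 shared peaks and 3.16 peaks of technical replicate 7 per 100 kb.

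The Cyp4f array held 14 shared peaks in 495 kb, or 2.83 per 100 kb. Of these, 4 lay at starts of zinc finger genes within the array (Zfp871, Zfp811, Zfp799 and Zfp870), and 2 at Cyp starts, those of Cyp4f17 and Cyp4f16. The start regions of the outermost genes, Cyp4f39 and Cyp4f13, were centred 79 and 48 bp upstream. They fall just outside the array and are not among the 14. Of the other 8 shared peaks in the array, 7 lay in exons of Cyp4f genes and 1 between genes. The strongest was in an exon of Cyp4f17 at densities of 2.39 in technical replicate 7 and 2.60 in technical replicate 1 (32528765 to 32529065). The short Cyp1a array (26.9 kb) held 3 shared peaks. Repeated sequence limits what can be seen in an array, since reads from near-identical copies cannot be placed, and the authors' handling of such reads is not given in the sources used here. Words of 36 bases that occur once in the genome made up 55.5% of the Cyp3a array, 59.4% of the Cyp2c array, 76.3% of the Cyp2j array and 86.0% of the Cyp4f array.

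**Figure D2:**
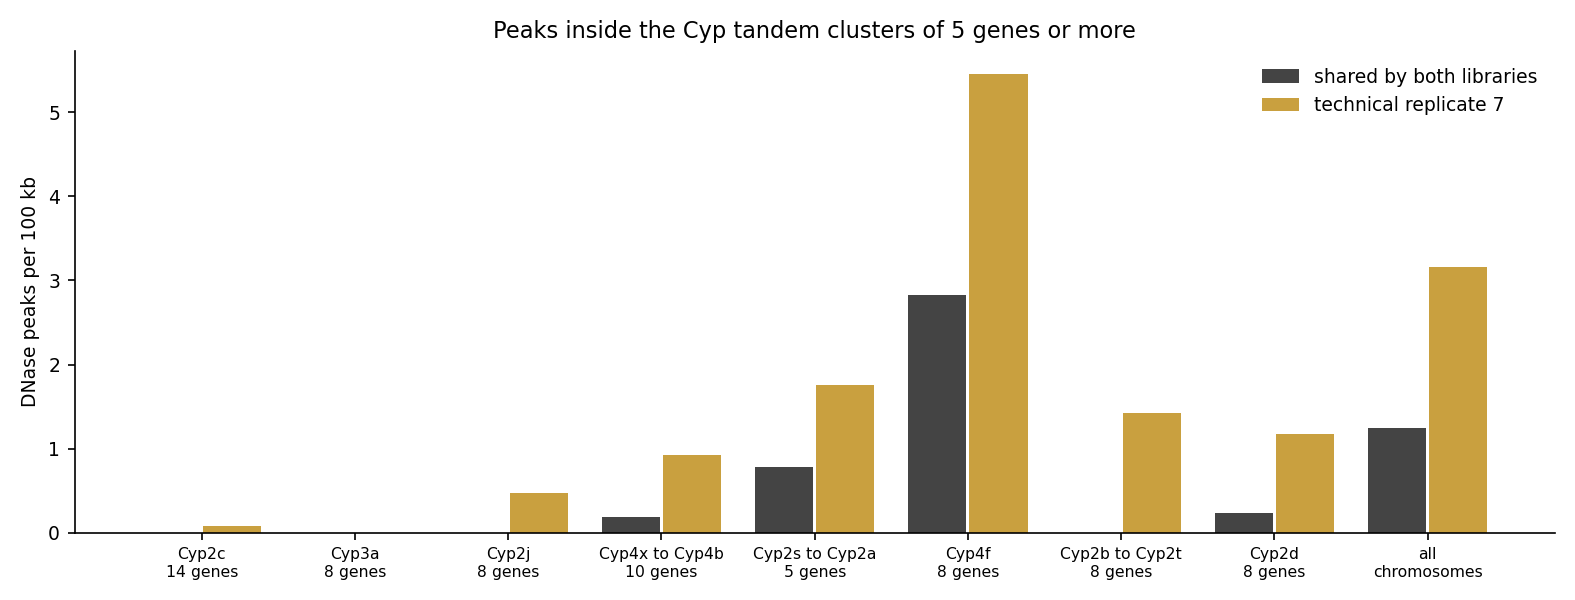
DNase peaks per 100 kb between the outer edges of the outermost genes of the 8 Cyp arrays of 5 genes or more, longest array first, with the value over all chromosomes at the right. Dark bars are peaks shared by both libraries and light bars those of technical replicate 7; the Cyp3a array has neither, and the Cyp4f array exceeds the value over all chromosomes in both.

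Uniqueness was measured at each start as the share of 36-base words of the window 1 kb each side that occur once. It was at least 90% at 60 members, of which 18 were open, against 66.7% of all protein-coding genes with such a window. Of the 40 members under 90%, 1 was open, Cyp4f16 at 76.6%, against 850 of 3817 protein-coding genes under 90% (22.3%). The lowest values were 9.82% at Cyp2c29 and 11.8% at Cyp3a41b, so the absence of peaks at those starts says little. Closed starts with high values included Cyp2e1, Cyp7a1 and Cyp19a1 at 100% each.

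CpG content went with openness. Observed over expected CpG in 1000 bp around the 5′ end had a median of 0.15 over the members, against 0.55 over all protein-coding genes. Below 0.3 lay 80 members, of which 4 were open, against 12.3% of all protein-coding genes in that range. Between 0.3 and 0.6, 7 of 11 members were open (63.6%), against 59.3% of all. At 0.6 or more, 8 of 9 were open (88.9%), against 92.5% of all, and the exception was Cyp26a1. The share among members was thus near that of genes of like CpG content in the upper ranges. In the lowest range 40 of the 80 members had windows at least 90% unique, and 3 of these were open. The exact 95% binomial interval of that share, which treats the genes as independent, ran over 1.57% to 20.4%. It includes the 12.3% of all genes, which is not restricted to unique windows. Over all 80 members in that range the share was 5.0%, with an interval of 1.38% to 12.31%. Because 68 of these 80 sit in tandem arrays, they are not independent. Neither interval therefore decides whether members differ from all genes of like CpG content. The 4 open members under 0.3 were Cyp1a1, Cyp4f13, Cyp4f16 and Cyp26b1. At the internal start where Cyp26b1 was open the value was 0.59.

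**Figure D3:**
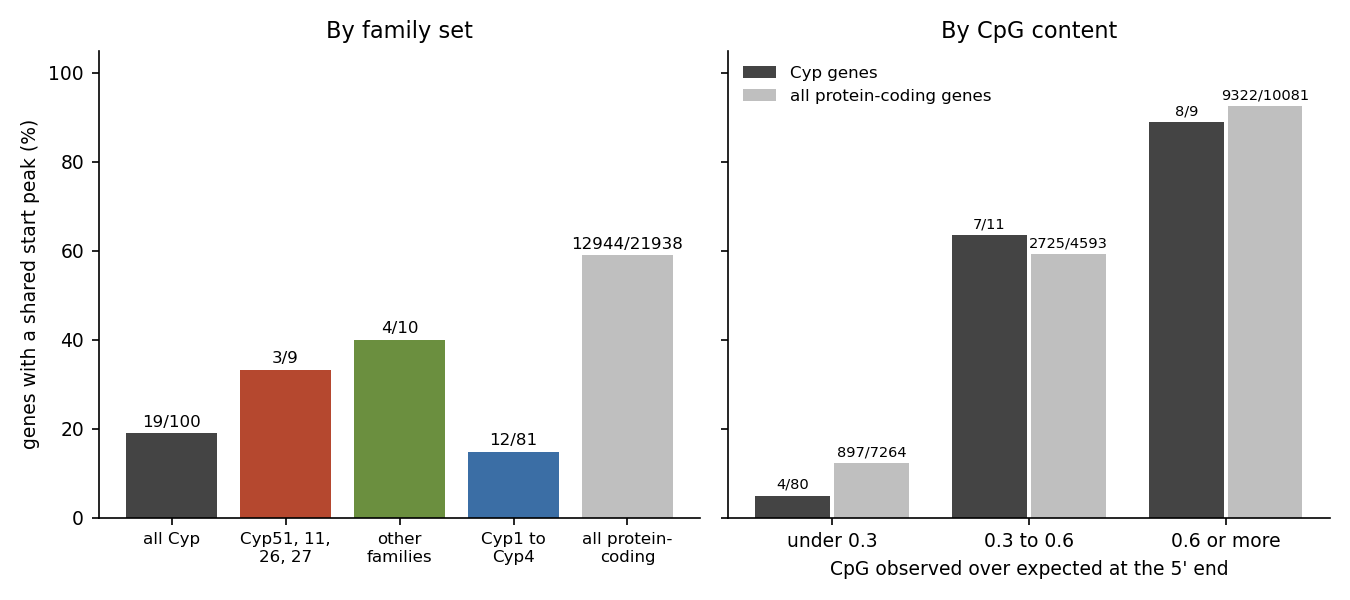
Share of genes with a start peak shared by both libraries, with counts above the bars. On the left, 19 of 100 Cyp genes and their family sets stand beside all protein-coding genes (59.0%); on the right, Cyp genes (dark) and all protein-coding genes (light) are split by CpG observed over expected at the 5′ end, and both climb with it.

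The family sets differed in CpG content as well as in openness. The median was 0.35 in the sterol, steroid and retinoid set and 0.13 in Cyp1 to Cyp4. At 0.3 or more, 2 of the 5 genes of the sterol, steroid and retinoid set were open, Cyp51 and Cyp27a1, against 9 of the 10 genes of Cyp1 to Cyp4. Under 0.3, 1 of 4 and 3 of 71 were open. Split this way, the sterol, steroid and retinoid set was not open more often than Cyp1 to Cyp4 in the upper range. Under 0.3 it was open more often, on 1 open gene of 4. The groups are small, and the split was not tested.

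**Figure D4:**
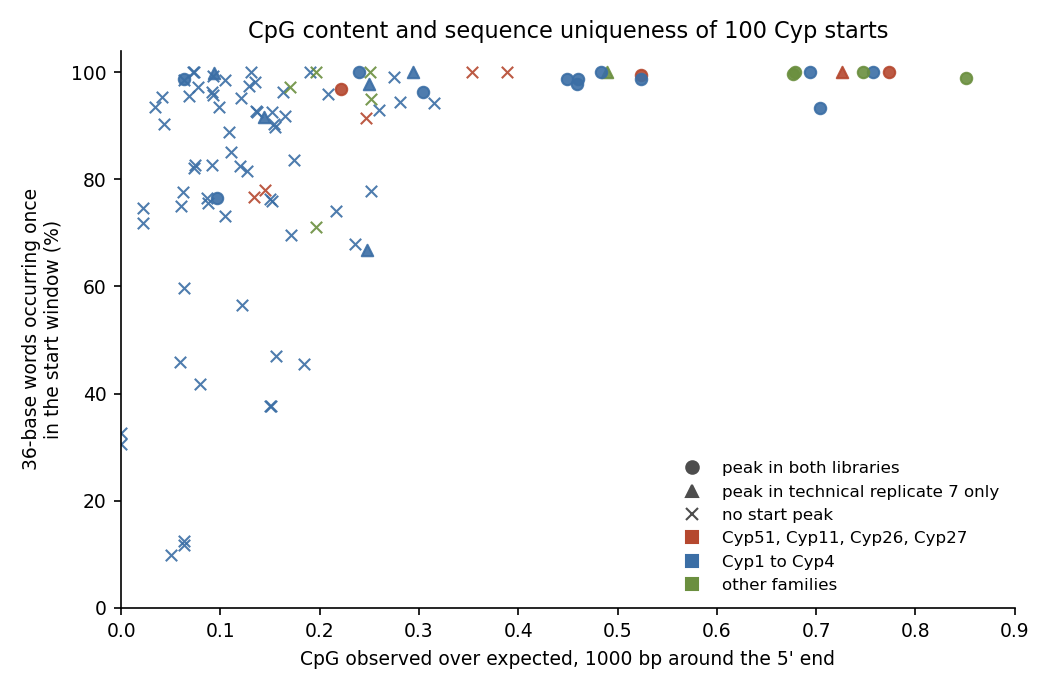
CpG observed over expected around the 5′ end against the share of 36-base words occurring once in the start window, for the 100 Cyp genes. Circles have a start peak in both libraries, triangles in technical replicate 7 alone and crosses in neither, and colours give the family set; most crosses lie under 0.3, and the 9 genes at 0.6 or more include no cross.

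Promoter letters also differed between open members and the others. Motifs were searched on both strands from 250 bases before to 50 after the 5′ end. TATAAA stood at 1 of the 19 open members and 32 of the 81 others (39.5%), against 7.05% of open and 20.7% of other protein-coding genes. The open member was Cyp26b1, whose outermost 5′ end had no shared peak. Only that outermost end of each gene was searched. Cyp1a1 and Cyp2e1, whose printed TATAAA stands before another start, are therefore not counted. CCGCCC, a core of SP factor sites, stood at 11 open members (57.9%) and 8 others (9.88%), against 62.1% of open and 15.5% of other genes. GCGTG stood at 12 open members (63.2%) and 8 others, against 50.7% of open and 16.8% of other genes. CCAAT stood at 11 open members and 39 others (48.1%), against 38.7% and 39.5%. Neither TGACGTCA nor pairs of AGGTCA spaced by 1, 4 or 5 bases, the layouts read by several nuclear receptor pairs, stood at any member, and such pairs were rare at all starts. CCGCCC and GCGTG contain CpG or follow GC content, and TATAAA is made of A and T alone, so they are not independent of the values above. A TATAAA whose first base lies 40 to 20 bases before any annotated start, on the strand of the gene, was found at 10 members, against 3.13% of all protein-coding genes. Of these 10 members Cyp1a1 alone was open. Of the 687 protein-coding genes with such a TATAAA, 180 were open.

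Fewer distal shared regions lay near members than near protein-coding genes on average. Shared regions over 1 kb from any start and within 50 kb of a start of the gene averaged 0.69 per member, against 1.29 per protein-coding gene. At least 1 such region lay near 31 members, against 52.8% of all genes. These values depend on the library: in technical replicate 7 alone the mean was 2.30 per member, against 3.91 per protein-coding gene. In that library 54 members had at least 1 distal peak, a count with no share over all genes beside it. It comes from a different list than the 52.8%, so they are not compared. Open members averaged 1.89 distal shared regions and the other 81 averaged 0.41. Open protein-coding genes averaged 1.59. In the sterol, steroid and retinoid set the mean was 1.00, and in Cyp1 to Cyp4 it was 0.63. The regions near members were 51 distinct ones, of which 18 were intergenic, 23 intronic and 10 exonic, and 15 lay inside a Cyp gene. Their median mean rank percentile was 57.3, against 53.0 over all distal shared regions.

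Distal regions went with open neighbours. Within 50 kb, 77 of 100 members had no other protein-coding gene with an open start, against 46.9% of all genes. Such members averaged 0.32 distal regions, against 0.69 over genes of that kind. The members with an open neighbour averaged 1.91, against 1.83. Cyp2w1 had the most distal regions, 8, with no start peak of its own. The strongest lay 19.7 kb away in an intron of 3110082I17Rik on chromosome 5 (139372118 to 139372435), at densities of 3.66 in technical replicate 7 and 3.47 in technical replicate 1. The 3 other protein-coding genes within 50 kb of Cyp2w1, Gpr146, Cox19 and Adap1, were all open. Cyp4f17 had 5 distal regions, Cyp4f16 and Cyp2s1 had 4 each, and 6 members had 3 each (Cyp24a1, Cyp26b1, Cyp46a1, Cyp4f13, Cyp4f14 and Cyp4f39). Near Cyp26b1 the strongest lay 1.83 kb from a start, in an intron of the gene (84590344 to 84590616), at 2.06 in technical replicate 7 and 2.04 in technical replicate 1. The strongest distal region near Cyp1a1 and Cyp1a2 was intergenic, 27.8 kb from the start of Cyp1a2 (chromosome 9, 57655814 to 57656044), at 3.42 and 3.27 in technical replicates 7 and 1. Which gene a distal region serves cannot be read from these files.

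Of the genes that work with P450 enzymes, all 6 electron donors and all 18 enzymes of cholesterol synthesis other than Cyp51 were open. The open share was 59.0% over all protein-coding genes and 92.5% over those with CpG of 0.6 or more. The electron donors had a median mean rank percentile of 93.4. Por had densities of 7.36 in technical replicate 7 and 4.58 in technical replicate 1, at rank percentiles 99.9 and 97.2, above every Cyp start except Cyp46a1 by mean rank. Fdxr had 5.70 and 4.72, and Fdx1 had 1.41 and 1.43, in technical replicates 7 and 1. The enzymes of cholesterol synthesis had a median mean rank percentile of 93.8, beside 91.5 for Cyp51. Hmgcs1, near the entry of the pathway, had 5.32 and 5.26, and Dhcr7, at its end, had 5.54 and 5.60, in technical replicates 7 and 1. Conjugating enzymes, which act on the products of drug oxidation, were open at 7 of 10 genes, beside the same 59.0%.

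Receptors and factors that control Cyp genes were open at 13 of 20, near the 59.0% of all protein-coding genes. Among those open were the partners Ahr, at 2.03 in technical replicate 7 and 2.38 in technical replicate 1, and Arnt, at 4.01 and 3.97. Srebf2, which drives the genes of cholesterol synthesis, had 6.40 and 4.68. The pregnane X receptor Nr1i2 and the constitutive androstane receptor Nr1i3, which induce Cyp3a and Cyp2b genes, had no start peak in either library. Hnf4a, a regulator of hepatocyte genes, and the bile acid receptor Nr1h4 had one in technical replicate 7 alone, at densities of 0.72 and 0.32. Steroid and bile acid enzymes other than P450 were open at 3 of 10, and the genes that make and carry retinoic acid at 2 of 8, Rdh10 and Aldh1a2. Each share lay below that 59.0%. Both P450 genes without a Cyp symbol, Tbxas1 and Ptgis, were open.

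**Figure D5:**
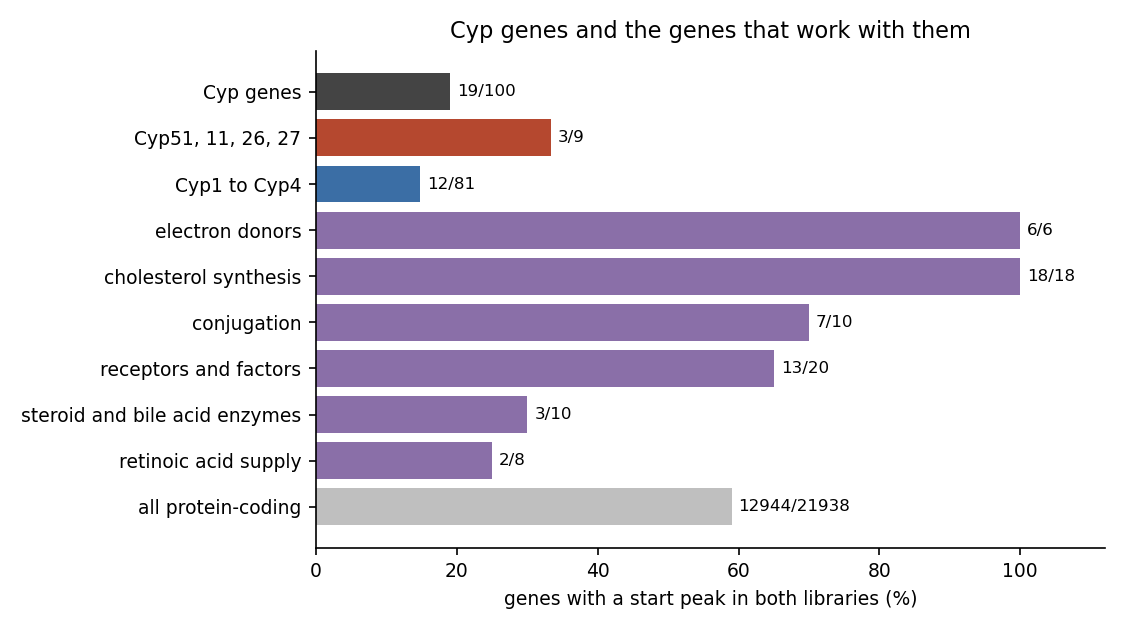
Share of genes with a start peak in both libraries, for the Cyp genes, their family sets, the listed partner genes and all protein-coding genes, with counts at the bar ends. Electron donors and cholesterol synthesis reach 6 of 6 and 18 of 18, and Cyp1 to Cyp4 reach 12 of 81, beside 12944 of 21938 for all protein-coding genes.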

How the data were processed

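DNase-seq of 2 libraries (technical replicates 7 and 1 of biological replicate 1) was analysed from the files the authors deposited on mm10, per the file headers. Peaks, hotspots and footprints were called per library by the authors; aligner, callers, read length and read numbers: not given in the sources used here. In the deposited peak lists each peak has the maximum density of cuts as a signal. The deposited hotspots have a −log10 false discovery rate, and the deposited footprints of technical replicate 1 have a constant 0.01, read as a p-value threshold. The footprint lists (107626 and 219621 entries) may come from different processing. Footprint counts are therefore given for each library and not compared between libraries. The shorter of 2 peak lists per library was used.

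Peaks overlapping by at least 1 bp between libraries were joined and placed at the midpoint of the strongest peak of technical replicate 7. Starts are those of the GENCODE vM21 basic annotation. CpG content, motifs and unique 36-base words were read from GRCm38.p6. The CpG ranges, the TATAAA position, the neighbour counts and the GCGTG counts in distal regions were chosen after values were seen. No p-value was computed. Counting was tested on simulated peaks. Python 3.11.15, numpy 2.4.6, pandas 2.3.3, numba 0.67.0 and matplotlib 3.10.9 were used.

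The members and gene lists were chosen with earlier results of these data known. The genes named are the open members, all of the sterol, steroid and retinoid set, the 5 with the most distal shared peaks (ties by symbol), the 5 strongest in 1 library alone, and 14 fixed by name (Cyp1a1, Cyp1a2, Cyp1b1, Cyp2e1, Cyp2r1, Cyp3a11, Cyp3a13, Cyp3a16, Cyp7a1, Cyp7b1, Cyp8b1, Cyp17a1, Cyp19a1 and Cyp24a1). Other members named were chosen after their values were seen. Alternatives were other peak lists, single libraries, a 50% overlap, the stronger 50% of shared regions, start windows of 500 and 2500 bp, distal windows of 20 and 100 kb, the 5′ end alone, any overlap with the window, other family sets and unique windows only.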

Additional observations from a re-analysis of the deposited data

How the results depend on the processing

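Of 58 alternative values, 47 stayed within 1.5 times the main value. No paired analysis was possible because there is 1 group and no test. With single libraries, open Cyp genes numbered 19 to 26, members with a distal region 31 to 54, and distal regions per member 0.69 to 2.3, the high values in technical replicate 7. Over all protein-coding genes, 59.6% to 65.0% were open and distal peaks per gene averaged 1.45 to 3.91. The counts of members with a distal region, here and in the stronger 50% below, have no share over all genes beside them. In the stronger 50% of shared regions 8 Cyp genes were open, 1 of the sterol, steroid and retinoid set and 4 of Cyp1 to Cyp4, with 0.28 distal regions per member and 19 members with at least 1. At that setting 10624 of 21938 protein-coding genes were open, against 12944 in all shared regions, a smaller drop than that of the Cyp genes. The 8 were Cyp46a1, Cyp51, Cyp20a1, Cyp39a1, Cyp4f13, Cyp1b1, Cyp2r1 and Cyp2u1. Distal windows of 20 and 100 kb gave 0.3 and 1.29 regions per member. No value over all genes stands beside them. The 1.29 at 100 kb is therefore not comparable with the 1.29 per protein-coding gene at 50 kb. The wider set of 19 endogenous lipid enzymes held 7 open genes, and Cyp1 to Cyp3 without Cyp2r1, Cyp2u1 and Cyp2s1 (58 genes) held 3. A 500 bp window lost Cyp1b1, and the 5′ end alone lost Cyp26b1. With no read numbers, a start called closed is one where no peak was detected at an unknown depth. Inaccessible chromatin is not shown there.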
